A study of Sus scrofa with 16 samples.

Results

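Peak-dense bins are stretches of 100000 bp on pig chromosomes 1 to 18 of which the methylation peaks of 4 groups of pigs together covered 30% or more. The bins were chosen on the covered share itself, so that the share is a description and was not tested. Of 24503 bins on these chromosomes, 1533 were peak-dense (6.26%), and they added up to 153.3 Mb. All positions are those of the pig assembly Sscrofa10.2.

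The peaks came from MeDIP-seq of the hearts of 16 boars, castrated and 6 months old. The groups of 4 animals were Tibetan pigs raised in the highland (TH), Yorkshire pigs raised in the highland (YH), Tibetan pigs raised in the lowland (TL) and Yorkshire pigs raised in the lowland (YL), and YH and TL descended from pigs that had been moved to that elevation. For each group 1 list of peaks was deposited, in which peaks are not assigned to animals and at most 4 of them lie over any base, so that each list was read as the joined peaks of 4 animals. With 1 list per group there is no spread between animals, and no test between groups was made.

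MeDIP enriches sheared DNA with an antibody against 5-methylcytosine. In mammals this base is found mainly where C is followed by G, and the antibody pulls down DNA in which several such methylated sites lie close together. A peak therefore marks DNA that is both methylated and rich enough in these sites to be caught, and a region without peaks may be unmethylated or poor in such sites. Most of the pig chromosomes numbered 1 to 12 have their centromere between the arms, whereas those numbered 13 to 18 carry it at one end.

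The union of the 4 lists covered 35.1% ± 4.16 (SD over bins, n = 1533) of a peak-dense bin on average, against 11.2% of the other bins. The median was 34.2%, the middle quartiles ran from 31.7% to 37.5%, and the highest value was 56.1%. A share of 35% was reached by 648 bins, of 40% by 206 and of 50% by 5. Over all bins the median was 10.8%, and 1352 bins held no covered base. The distribution had no gap at the limit of 30%, as the plot of covered shares shows. The bins just inside it were chr8:143000001-143100000 (30.002%), chr10:49800001-49900000 (30.006%) and chr4:5600001-5700000 (30.01%), and those just outside were chr5:67600001-67700000 (29.994%), chr11:3900001-4000000 (29.994%) and chr3:41100001-41200000 (29.991%). Although they made up 6.26% of the bins, the peak-dense bins held 17.4% of all bases under the union.

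**Figure D1:**
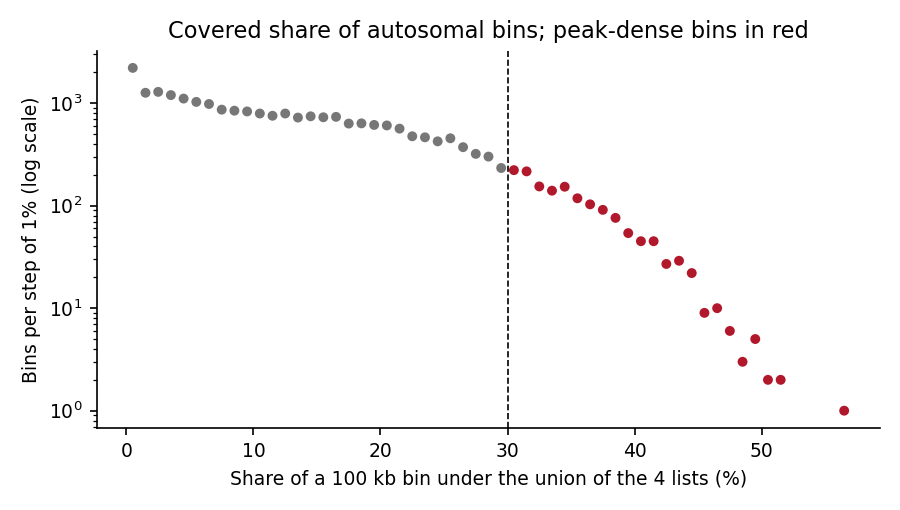
Number of bins (y axis, log scale) in each step of 1% of the share of a bin of 100000 bp under the union of the 4 lists (x axis, percent), with peak-dense bins in red and the limit of 30% as a dashed line. The numbers fall smoothly across the limit, and 1 bin stands alone at 56.1%.

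The covered bases of a peak-dense bin lay in 15.1 separate regions on average (7 to 26 per bin), where a region is an unbroken stretch under at least 1 peak of any list. The other bins held 8.74 regions on average. The regions were also wider, with a median of 2000 bp against 1050 bp, and 26.3% of them reached 3000 bp against 4.25% in the other bins. The 3.15 times higher covered share was thus made up of 1.72 times as many regions and of regions 1.83 times as wide on average. The 4213 bins with a covered share of 20% up to 30% held 14.9 regions on average, nearly as many as the peak-dense bins, but the median width of these was 1344 bp. What set the peak-dense bins apart from this neighbouring class was therefore the width of the regions more than their number. The median gap between regions was 3564 bp in the peak-dense bins and 4541 bp in the others.

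Peak-dense bins were concentrated towards the chromosome ends. The outer 10% at each end held 945 of the 1533 bins, or 61.6% (95% Wilson interval 59.2–64.0%, for counting error alone, which treats neighbouring bins as independent), against 20.04% of all bins. Of the bins at the ends 19.2% were peak-dense, and of the bins in the middle 80% only 3.001%. The ends were denser on 18 of 18 chromosomes. Within 5 Mb of an end lay 504 peak-dense bins, or 32.9%, compared with 7.38% of all bins. The share of bins that were peak-dense was not highest at the tip itself. It was 22.0% in the first Mb, 25.3% from 1 to 2 Mb, 30% from 2 to 3 Mb and 31.1% from 3 to 5 Mb, and it then fell to 21.2% from 5 to 10 Mb, 8.75% from 10 to 20 Mb and 1.47% beyond 40 Mb. The first bin of a chromosome was peak-dense on 5 of 18 chromosomes. Chromosome ends were taken as base 1 and as the last base under a peak, and the content of C, G and unsequenced bases of the bins was not analysed here.

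Chromosome 12 had the highest share of peak-dense bins, with 119 of 636 (18.7%), followed by chromosome 10 with 13.8%, chromosome 18 with 13.7% and chromosome 11 with 11.9%. The lowest shares were 1.90% on chromosome 15, 2.10% on chromosome 13 and 2.74% on chromosome 1. On chromosome 1, 81 of the 86 peak-dense bins lay in the outer 10% at either end, while on chromosome 10 only 32 of 109 did. Chromosome 10 had 12.2% of its middle bins peak-dense and chromosome 12 had 13.98%, the highest values for the middle. Shorter chromosomes tended to have the higher shares. Across the 18 chromosomes Pearson's r between length and share was -0.68 and Spearman's rho was -0.72, and r was -0.73 without chromosome 1, which is given as a description. The points share the same 4 lists, and base composition was not analysed here.

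The chromosomes with the centromere at one end had peak-dense bins mostly at one side. In the first 5 Mb, 1 of 50 bins was peak-dense on chromosome 13, 1 of 50 on chromosome 14, and 0 of 50 on each of chromosomes 15, 16 and 17. In the last 5 Mb the numbers were 24 of 51 on chromosome 13, 18 of 51 on chromosome 14, 7 of 50 on chromosome 15, 23 of 51 on chromosome 16 and 19 of 50 on chromosome 17. Chromosome 18 was the exception in this group, with 11 of 50 in the first 5 Mb and 25 of 51 in the last. Most chromosomes from 1 to 12 had peak-dense bins at both ends, such as chromosome 8 with 19 of 50 and 28 of 50. Chromosome 1 again differed, with 14 of 50 in the first 5 Mb and 0 of 51 in the last, and so did chromosome 2 with 10 of 50 and 1 of 51. Together, 7.20% of the bins of chromosomes 1 to 12 were peak-dense and 4.12% of those of chromosomes 13 to 18.

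**Figure D2:**
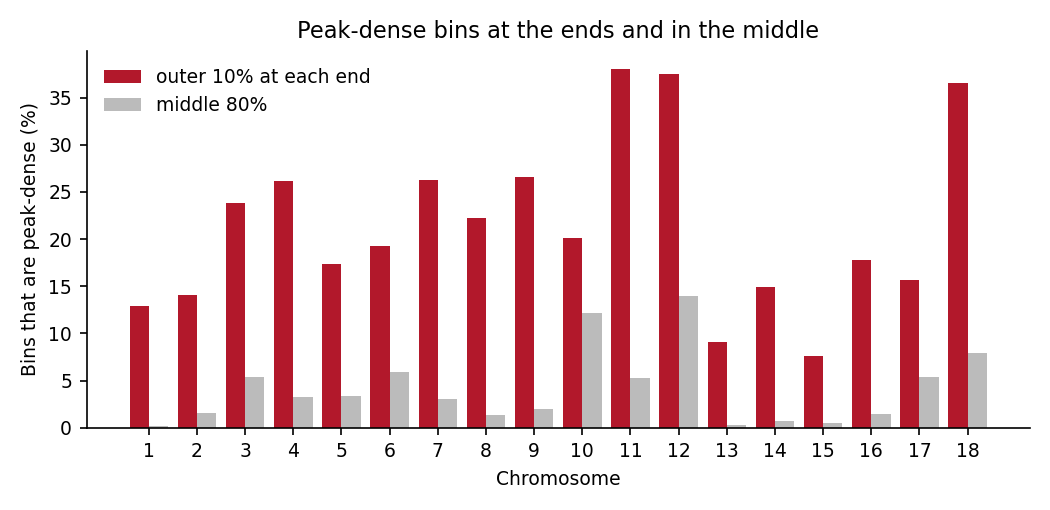
Share of bins that were peak-dense (y axis, percent) on each chromosome (x axis), in the outer 10% at each end (red) and in the middle 80% (grey). The red bar is higher than the grey bar on 18 of 18 chromosomes, and the grey bars are highest on chromosomes 10 and 12.

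The bins formed 956 runs of adjacent peak-dense bins. Of these, 642 were single bins, and the other 314 runs held 891 bins, or 58.1%. There were 32 runs of 5 or more bins with 190 bins in all, and 84.7% of these bins lay in the outer 10% of a chromosome, against 48.4% of the single bins. The longest runs had 8 bins (800000 bp) and were chr18:57600001-58400000, chr18:59800001-60600000 and chr8:143900001-144700000. Next came chr3:140200001-140900000 with 7 bins and a mean covered share of 40.8%, and chr12:59900001-60600000 with 7 bins and 39.1%. Each of these 5 runs lay within 5 Mb of a chromosome end.

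The surroundings of the peak-dense bins were also well covered. Of the bins 100 kb away, 37.7% were peak-dense themselves, and the union covered 26.1% of them on average. At 1000 kb these values were 24.0% and 21.4%, and at 2000 kb they were still 22.1% and 20.3%, against 6.26% and 12.7% over all bins. Bins within 10 Mb of a chromosome end, where many peak-dense bins lay, were at a similar level in general. In steps of distance from the end, 21.2% to 31.1% of them were peak-dense, and the union covered 17.8% to 22.0%. Nearness to an end and to a peak-dense bin were not told apart. The step from the peak-dense bins to their neighbours is set by the rule, since only the former were chosen on their covered share. From 100 kb on the covered share fell slowly in each list.

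**Figure D3:**
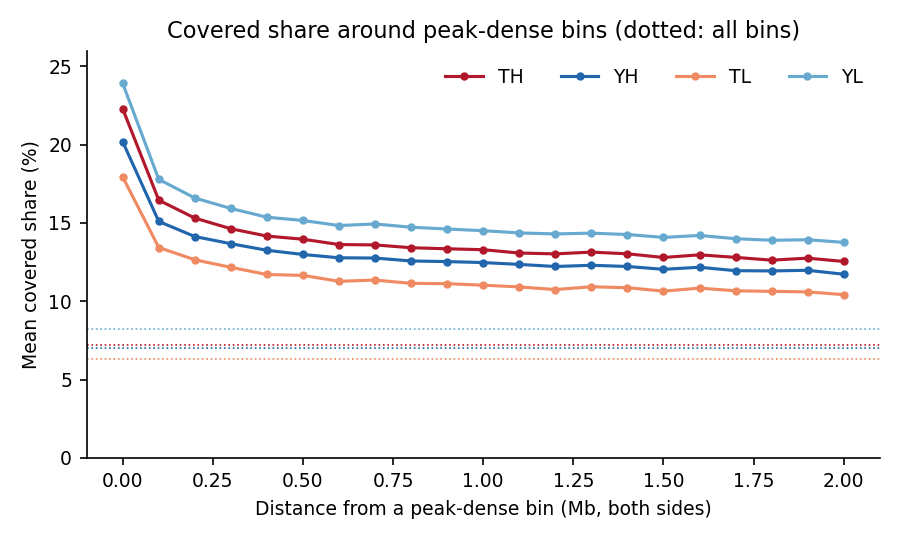
Mean share of a bin covered by each list (y axis, percent) against the distance from a peak-dense bin on both sides (x axis, Mb), with the mean over all bins of each list as a dotted line. At 2 Mb the lists still covered 10.4% (TL) to 13.8% (YL), above the dotted lines at 6.28% and 8.21%.

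Taken alone, the YL list covered the peak-dense bins most and the TL list least. The covered share per bin was 23.9% ± 4.73 (SD over 1533 bins) in YL, 22.3% ± 4.84 in TH, 20.2% ± 4.98 in YH and 17.9% ± 4.77 in TL. In the other bins the means were 7.16% in YL, 6.21% in TH, 6.14% in YH and 5.51% in TL. YL was highest and TL lowest on 18 of 18 chromosomes. Per bin YL was highest in 834 (54.4%) and TL lowest in 892 (58.2%) of the 1533. These shares were 46.5% and 39.5% of the other bins that held a covered base, where each tie went to a single list. The study's counts of uniquely mapped reads were also lowest for TL and highest for YL, but they were higher for YH than for TH, and the part of read depth in the covered shares was not tested. TH lay only 0.0655 percentage points above YH in the other bins and 2.11 points above it in the peak-dense bins. This lead rested largely on bases under a single peak of a list. Counting only bases under at least 2 peaks of a list, TH covered 11.2% and YH 10.8% of the peak-dense bins. In the other bins TH was then below YH, with 2.93% against 3.07%.

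The TH list had 33418 of its 258861 autosomal peaks there (12.9%), against 12.2% in TL, 12.03% in YL and 11.99% in YH. Of its covered bases 19.3% lay there, against 18.2% in YL, 17.99% in YH and 17.9% in TL. The TH list had fewer autosomal peaks than the YH list (258861 against 263514) but more of them in these bins, where YH had 31607. Each list counts towards the union, and fewer bins would have been peak-dense without TH (896) than without YH (1125) or TL (1186), so that the values of TH in these bins, its lead over YH included, follow in part from how the bins were chosen.

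A single list seldom passed the limit. A share of 30% was reached by TH alone in 97 bins, by YH in 47, by TL in 15 and by YL in 154, and 224 bins (14.6%) were passed by at least 1 list, 2 of them by all 4. The best list of a bin covered 25.2% in the median, and the union covered 1.37 times that. Between the highest and the lowest list of a bin the median ratio was 1.51, and it was 2 or more in 217 bins (14.2%). Without the TH list 896 bins would have been peak-dense, without YH 1125, without TL 1186 and without YL 837.

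**Figure D4:**
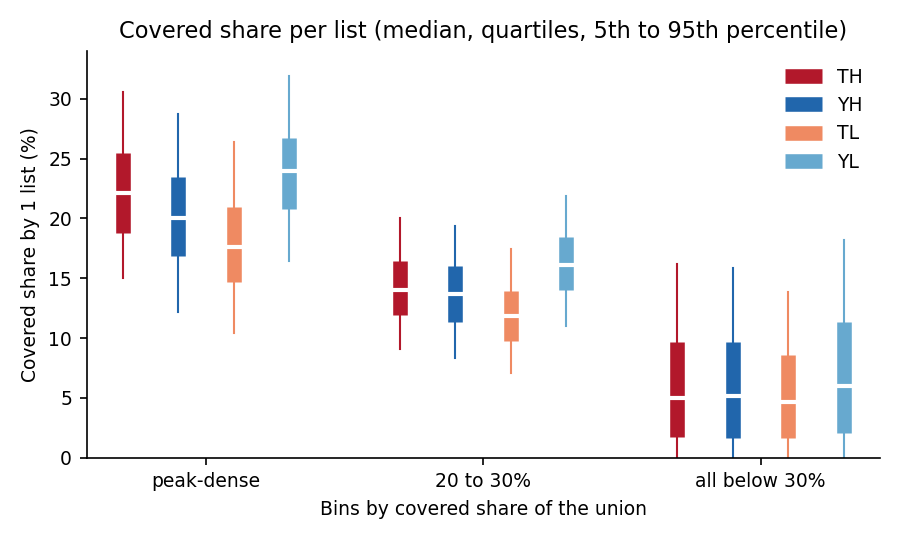
Share of a bin covered by 1 list (y axis, percent) in peak-dense bins, bins of 20% up to 30% and all bins below 30% (x axis), with the median as a white mark, the middle quartiles as a bar and the 5th to 95th percentile as a line. In the peak-dense bins the medians are 23.9% in YL, 22.1% in TH, 20.01% in YH and 17.6% in TL, and the ranges of the lists overlap.

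Each comparison below sets 2 lists side by side, and the comparisons share lists with each other. Between the breeds in the highland, TH covered more than YH in 1004 of the 1533 peak-dense bins (65.5%), against 51.5% of the bins with peaks in either list. TH reached at least 1.5 times the share of YH in 191 peak-dense bins (12.5%), against a background of 16.4% of the bins with peaks in either list, and YH reached 1.5 times TH in 32 (2.09%), against 13.5%. The background holds many sparsely covered bins, where a few peaks make a large ratio. In the bins of 20% up to 30% the shares were 9.54% and 4.39%. Both lists count towards the union on which the bins were chosen, TH more than YH, so that the excess of TH in the peak-dense bins is in part set by the rule and is a description.

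Between the breeds in the lowland, YL covered more than TL in 1364 peak-dense bins (89.0%), against 75.6% of the bins with peaks in either list. YL reached 1.5 times TL in 491 (32.0%, background 32.9%), and TL reached 1.5 times YL in 5 (0.326%, background 7.68%). Between the elevations in Tibetan pigs, TH covered more than TL in 1266 bins (82.6%), against 62.05% of the bins with peaks in either list. TH reached 1.5 times TL in 344 (22.4%, background 21.2%) and TL 1.5 times TH in 7 (0.457%, background 11.2%). Between the elevations in Yorkshire pigs, YL covered more than YH in 1213 bins (79.1%), against 69.96% of the bins with peaks in either list. YL reached 1.5 times YH in 269 (17.5%, background 22.6%) and YH 1.5 times YL in 11 (0.718%, background 6.60%). In the bins of 20% up to 30%, which are closer in coverage, the shares were 34.8% (YL over TL), 0.522% (TL over YL), 18.5% (TH over TL), 1.35% (TL over TH), 16.5% (YL over YH) and 1.04% (YH over YL). The higher-covering list of each pair thus held most of the larger differences in both classes of bins.

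Single bins departed widely from these means. These were picked for their ratios after the values were seen. In chr16:78800001-78900000 the TL list covered 2.87%, against 24.5% in YL, 16.4% in TH and 16.5% in YH. In chr11:4000001-4100000 the YH list covered 7.47%, against 34.6% in YL, 25.3% in TH and 11.1% in TL. In chr3:14700001-14800000 the TH list covered 19.3% and the YH list 5.38%, and in chr12:49400001-49500000 the TL list covered 23.8% and the TH list 9.17%. The other directions had their extremes too. The YH list covered 21.2% of chr12:39900001-40000000 against 10.1% in TH, and 27.4% of chr5:400001-500000 against 10.7% in YL. The TL list covered 16.6% of chr4:103700001-103800000 against 10.3% in YL.

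The peaks in the peak-dense bins were longer than elsewhere in each list. The median length was 1706 bp in YL against 987 bp in the other bins, 1699 against 971 bp in YH, 1580 against 944 bp in TH and 1520 against 895 bp in TL. Peaks of 3000 bp or more made up 15.4% in YL, 14.4% in YH, 11.98% in TH and 9.56% in TL, against at most 2.38% in the other bins. There were also more of them, at 24.0 peaks per bin against 11.7 in YL, 21.8 against 9.81 in TH, 20.6 against 10.1 in YH and 19.1 against 9.21 in TL. The bins of 20% up to 30% lay between, with median lengths from 1112 bp (TL) to 1240 bp (YL). Since longer peaks raise the covered share on which the bins were chosen, these lengths are a description.

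The peaks in the peak-dense bins held more reads than those elsewhere but were less enriched over their surroundings. The median number of tags per peak, the reads that the authors' peak caller assigned to it, was 63 in YL (27 in the other bins), 60 in YH (26), 56 in TH (24) and 50 in TL (23). The median fold enrichment from the same caller was 6.07 in TH (8.67 in the other bins), 5.54 in TL (8.15), 5.47 in YL (7.80) and 5.25 in YH (7.58). The order from sparse to dense was the same in each list, as bins under 20% had medians from 8.26 (YH) to 9.31 (TH) and bins of 20% up to 30% from 6.37 (YH) to 7.38 (TH). The peak-dense bins were therefore the ones with the lowest enrichment per peak. With peaks of at least 10 times enrichment alone, 0 bins would have reached 30%. Most peaks of the other bins fell below that limit as well, with upper quartiles from 9.3 (YH) to 10.57 (TH). The 0 therefore reflects the filter at least in part and is no measure of methylation in these bins.

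Recurrence was counted as the number of peaks over a base, at most 16 for the 4 animals of 4 groups. In the peak-dense bins a single peak lay over 28.9% of the covered bases, against 33.98% in the other bins. Bases under at least 4 peaks made up 45.1% against 39.5%, under at least 8 peaks 21.5% against 18.1%, and under all 16 peaks 1.41% against 1.19%. A base under 16 peaks was present in 468 peak-dense bins (30.5%) and in 12.8% of the others, but the covered share of the former was 3.15 times as high. Counted by lists, 27.9% of the covered bases lay in all 4 lists and 33.4% in 1 list, against 23.4% and 38.9%. Peaks were thus somewhat more often shared in the peak-dense bins, although a large part of their covered bases rested on 1 peak. The bins were chosen on their covered share, and its part in the recurrence was not tested.

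Within a list, 4 peaks lay over 14.7% of the bases that YH covered (12.8% in the other bins), over 13.1% in YL (12.1%), over 11.1% in TL (9.39%) and over 5.57% in TH (5.78%). TH was the list in which fewest bases were under 4 peaks, both inside and outside the peak-dense bins, and the one in which this share was not higher inside. Exactly 2 peaks lay over 27.8% of the bases in TH and over 23.3% to 24.4% in the other lists. Which animals gave these peaks cannot be told apart without their names.

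**Figure D5:**
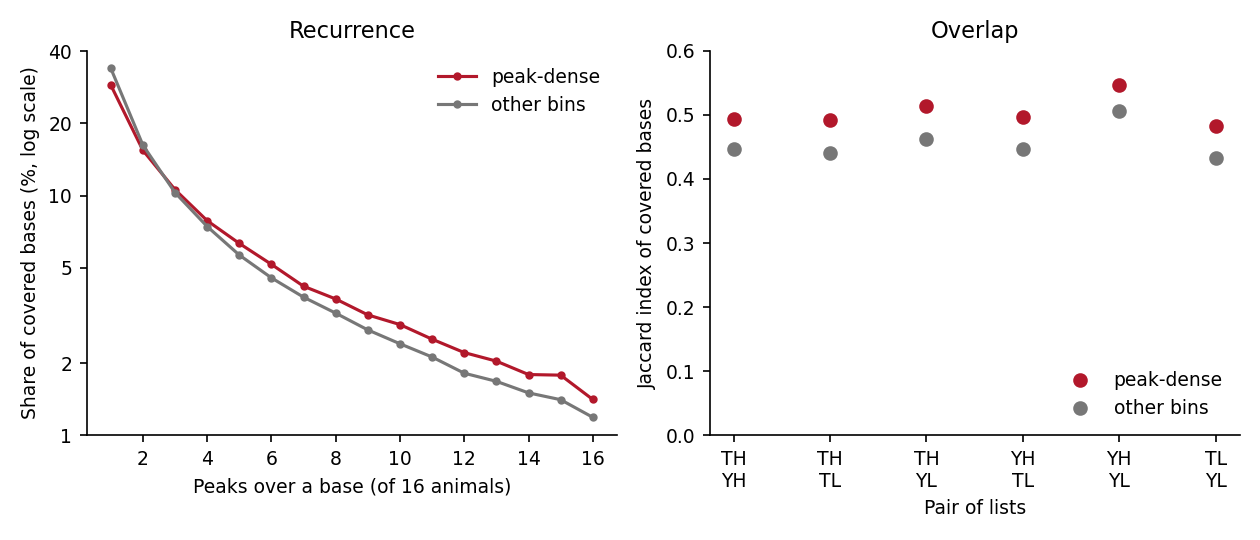
Left, share of covered bases (y axis, percent, log scale) under 1 to 16 peaks (x axis); right, Jaccard index of covered bases (y axis) for each pair of lists (x axis), in peak-dense bins (red) and other bins (grey). Red lies below grey at 1 and 2 peaks and above it from 3 peaks on, and above grey for each of the 6 pairs.

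The lists overlapped more in the peak-dense bins than elsewhere. As bases covered by both lists over bases covered by either (Jaccard index), the overlap of TH and YH was 0.493, against 0.447 in the other bins. The index was 0.482 against 0.433 for TL and YL, 0.492 against 0.441 for TH and TL, and 0.546 against 0.507 for YH and YL. The remaining pairs had 0.514 against 0.462 (TH and YL) and 0.497 against 0.446 (YH and TL). The covered shares also differ between these sets of bins, and their part in the index was not tested. The pair of Yorkshire lists was the most alike in both sets of bins. By single peaks in the peak-dense bins, 89.7% of the YH peaks overlapped a YL peak by at least 1 bp and 82.2% of the YL peaks a YH peak. Of the TH peaks 76.3% overlapped a TL peak, and of the TL peaks 86.7% a TH peak. In both pairs the share was higher for the list with fewer peaks.

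Bases covered by only 1 of the 4 lists made up 11.4% of the union for YL (12.9% in the other bins), 10.6% for TH (10.18%), 6.31% for YH (8.09%) and 5.12% for TL (7.72%). Such bases add to the union directly, so that these shares are a description too. The strict form of such a difference was rare. Bases under 4 YL peaks and no TL peak made up 0.490% of the union in the peak-dense bins, and the reverse 0.0896%. Bases under 4 YH peaks and no TH peak made up 0.278%, and the reverse 0.0645%. Between the elevations the shares were 0.0464% (4 TH and no TL peaks), 0.0502% (4 TL and no TH peaks), 0.140% (4 YL and no YH peaks) and 0.0558% (4 YH and no YL peaks). In the other bins these shares were 0.542% (4 YL and no TL peaks), 0.0639% (the reverse), 0.301% (4 YH and no TH peaks) and 0.0796% (the reverse) between the breeds. Between the elevations they were 0.0793% (4 TH and no TL peaks), 0.0887% (4 TL and no TH peaks), 0.169% (4 YL and no YH peaks) and 0.0513% (4 YH and no YL peaks). The shares were thus lower in the peak-dense bins than elsewhere in 6 of the 8 directions, the exceptions being 4 TL and no YL peaks and 4 YH and no YL peaks.

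The 1533 bins that each list covered most were also taken, a count chosen after the data were seen, which makes up 6.26% of all bins. Since the union is made of these lists, many of them had to be peak-dense, and the numbers are a description. Of these, 1141 were peak-dense for TH (74.4%), 1041 for YH (67.9%), 1032 for TL (67.3%) and 1144 for YL (74.6%). Any 2 lists shared from 63.9% (TH and YH) to 66.3% (TH and YL) of their bins. There were 658 bins in all 4 sets, of which 611 were peak-dense, and 62 peak-dense bins were in none.

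The peak-dense bins at the chromosome ends were covered slightly more than those in the middle, with a union share of 35.9% ± 4.44 (SD, n = 945 bins) against 33.9% ± 3.33 (n = 588 bins). The TH list covered 23.4% at the ends and 20.6% in the middle, and the YH list 20.8% and 19.1%. For the lowland lists the values were 24.6% and 22.9% (YL) and 18.6% and 16.8% (TL). The gap between TH and YH was thus wider at the ends. The number of regions per bin was not higher there (14.8 against 15.6).

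The bin with the highest covered share was chr4:140000001-140100000, where the union covered 56.1%, TH 36.3%, YH 26.7%, TL 32.3% and YL 39.6%. Next were chr5:93000001-93100000 with 51.3%, chr18:59000001-59100000 with 51.1%, chr17:59300001-59400000 with 50.4% and chr5:2700001-2800000 with 50.3%. The other 5 of the first 10 were chr13:214900001-215000000 (49.9%), chr3:133600001-133700000 (49.5%), chr4:143100001-143200000 (49.4%), chr4:2800001-2900000 (49.4%) and chr3:5400001-5500000 (49.1%). YL covered most in 8 of these bins. In chr13:214900001-215000000 YH covered most with 30.2%, followed by TL at 30.1%, TH at 29.7% and YL at 26.2%, and in chr3:5400001-5500000 TH covered most with 38.98%. The bin chr5:2700001-2800000 was nearly even in YL (34.2%), TH (34.1%) and YH (33.6%) but not in TL (19.1%). Of the 10, 2 held a base under all 16 peaks, against 30.5% of all peak-dense bins.

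Genes were placed through the windows of 500 bp that the study annotated, of which 3557 on chromosomes 1 and 10 to 14 were used here. In this part 330 windows carried a gene, with 164 genes in all, and 85 windows of 36 genes lay in 41 peak-dense bins. The annotation put 72 of the 85 in introns and 6 in promoters. The same split over all 330 windows is not given here, so that these counts are a description. The paper annotated genes for its differentially methylated regions, so these windows are a selected part of the genome. No overlap or set test was run on them, so that the genes below only say what lies in the bins. Covered shares given with a gene are those of its whole bin and not of the gene. The windows of WIPI1, UCHL5, PIP4K2A, CAMK1D and GRB2 in these bins held no peak of any list, whereas a window of ANGPTL2 held peaks of all 4 lists. Of the first 20 genes by covered share, 19 were found in RefSeq of the assembly Sscrofa11.1, all 19 on the same chromosome. Among the other 16 genes, LEP, listed on chromosome 1 with 4 windows, is on chromosome 18 in that assembly, so that its place is uncertain, and it is looked at here because of this mismatch.

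The gene in the most covered of these bins was GDI2, which retrieves Rab GTPases from membranes, in chr10:71200001-71300000 with 48.4% by the union. TH covered 30.4% of it, TL 28.6%, YL 24.6% and YH 18.7%. WIPI1, an autophagy protein, lay in chr12:12200001-12300000 with 41.5%, where YH covered most (31.0%) and TL least (19.2%). ANGPTL2, a secreted angiopoietin-like protein, lay in chr1:301500001-301600000 with 41.4%, where TH covered 31.6% and TL 12.6%. The gene listed as UNC-6, a name of netrin, was in chr12:56800001-56900000 with 41.1%, again with TH highest at 33.1%.

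PARK2, which encodes the ubiquitin ligase parkin, had windows in 5 peak-dense bins, all in introns. They were chr1:7400001-7500000 (34.5%), the run chr1:7600001-7900000 (34.3%, 39.8% and 38.4%) and chr1:8000001-8100000 (34.8%). In the most covered of them TL was highest at 26.7%, against 19.8% in TH, 21.1% in YH and 18.9% in YL. In the other 4 a Yorkshire list was highest, YH with 24.5% at chr1:7400001-7500000 and 24.99% at chr1:7800001-7900000, and YL with 25.8% at chr1:7600001-7700000 and 26.3% at chr1:8000001-8100000. Around them, 15 of the 30 bins from 7000001 to 10000000 of chromosome 1 were peak-dense. The share was 2.74% over chromosome 1 and 21.2% over all bins 5 to 10 Mb from a chromosome end. The union covered 26.7% of this stretch of 3 Mb, against 19.8% of all bins at that distance. The stretch was looked at after the values were seen. The same stretch held peak-dense bins with windows of the acyltransferase gene AGPAT4 (33.2%), of PLG, the gene of plasminogen (32.6%), of IGF2R, the imprinted receptor for insulin-like growth factor 2 (32.1%), and of TCP1, a subunit of the cytosolic chaperonin (35.2%).

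Other named genes were TMCO3 in a bin with 38.9%, where the lists covered from 21.5% (TL) to 22.6% (YH), and UCHL5, a deubiquitinase of the proteasome, with 38.5% and from 20.7% (YH) to 29.7% (YL). SPATA17 lay in a pair of adjacent bins with 37.9% and 37.2%. RAB5C, an endosomal GTPase, and DHX58, an RNA sensor of innate immunity, shared 1 bin with 36.9%, where TH covered 26.8%, YL 23.5%, TL 16.3% and YH 15.2%. C14H10orf84 lay in a bin with 36.1%, with YH highest at 26.03%. The kinase genes PIP4K2A and CAMK1D lay in bins with 35.7% each. In the PIP4K2A bin no list covered more than 18.8%, whereas in the CAMK1D bin each list covered at least 22.6%, so that the same union came from different degrees of sharing.

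TNNI1, the slow skeletal troponin I that the fetal heart also uses, lay in a bin with 35.4%, where YL covered 25.1%, TH 18.2%, TL 13.99% and YH 13.4%. SMYD3, a lysine methyltransferase, lay in chr10:20900001-21000000 with 35.3%, of which TH covered 21.8%, TL 11.2%, YL 7.55% and YH 7.03%. The order was another in the adjacent bin chr10:21000001-21100000, also with SMYD3 windows and a union of 31.9%, where TH was lowest with 10.6%, against 16.7% in TL, 14.5% in YH and 14.1% in YL. LHPP, a phosphatase, had a bin with 34.9%, SARDH, the mitochondrial sarcosine dehydrogenase, 1 with 34.7%, and the microRNA gene MIR152, with a promoter window, 1 with 34.7%.

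Of the 19 genes that the study treated as key genes, 10 had a window among those used, and those named here had one in a bin of 20% or more. FGFR2, a receptor of fibroblast growth factors, lay in chr14:142500001-142600000 with 34.1%, where YL covered 25.3%, TH 24.9%, YH 24.4% and TL 17.2%. GRB2, an adaptor that links receptors to Ras signalling, lay in chr12:5800001-5900000 with 30.02%, just inside the limit, where YL covered 25.1%, TL 18.2%, TH 16.4% and YH 15.1%. STAT5B, a transcription factor of cytokine signalling, was in a bin with 29.6% and ERG, a transcription factor of endothelial cells, in a bin with 29.3%, both just under the limit. In the ERG bin TH covered 24.0%, against 19.3% in TL, 16.6% in YH and 16.1% in YL.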

How the data were processed

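MeDIP-seq libraries of heart tissue of 4 animals in each of TH, YH, TL and YL were analysed through the 4 peak lists, 1 per group, that the authors deposited. The authors discarded reads with adapters, of low quality or too short, mapped the others with Bowtie to Sscrofa10.2 and called peaks with MACS. In the deposited lists, the tags of a peak are counts without normalization, the fold enrichment is a ratio given by the peak caller, and position, length and summit are in bp. The end of a peak was read from the joint start and end field, since a part of the TH list gives it only there.

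The union and each list were counted in bins of 100000 bp on chromosomes 1 to 18, with the largest peak end as the length of a chromosome. Peaks were assigned to bins by their midpoint. A ratio of 1.5 between covered shares was set after seeing the data. The last bin of a chromosome and unsequenced bases were not treated apart. Reads and depth per animal were not analysed here, and no test was made, because the bins were chosen on the lists and each group has 1 list. The 95% Wilson intervals cover counting error only. The members, lists and measures were chosen with earlier results of these data known.

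The bins named are the 10 with the highest covered share, the 5 longest runs (ties by covered share) and the 3 on each side of the limit. The genes named are the first 20 by covered share of their bin that the study's annotation of windows gives, and its key genes in bins of 20% or more. The result at 1 key gene is not reported here. The bins with the largest ratio between lists and the stretch around PARK2 with AGPAT4, PLG and IGF2R were added after the values were seen. The genes came from a part of the study's table of windows, and sequences and base composition were not analysed here. The counting was tested on simulated data, where 200 of 200 bins were recovered. Alternatives were other limits, another grid, stricter peaks, each list left out, bases under at least 2 peaks, chromosome X, ends of 5% and runs with gaps. Calculations were run in Python 3.11.15 with pandas 2.3.3 and NumPy 2.4.6, intervals came from SciPy 1.17.1 and plots from Matplotlib 3.10.9.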

Additional observations from a re-analysis of the deposited data

Results flagged for a closer look

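Chromosome X was outside the rule and was counted because it carried peaks that the comparisons above do not use. It held 45 peak-dense bins among 1443 bins. This was 3.12% of its bins (95% Wilson confidence interval 2.34–4.15%, counting error only), and the union covered 7.32% of a bin on average. Both values were lower than those over all autosomal bins, which were 6.26% and 12.7%. Of the 45 bins, 30 lay in the outer 10% at either end and 14 within 5 Mb of an end. All animals were male, so that chromosome X was present as 1 copy per cell against a pair of each autosome, and its part in these values was not tested.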

How the results depend on the processing

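The number of peak-dense bins depended on the limit, with 5746 at 20%, 3213 at 25% and 648 at 35%. The share in the outer 10% was then 37.9%, 48.2% and 71.5%, above the 20.04% of all bins in each case, and the share in runs of 2 or more was 78.8%, 68.3% and 45.7%. A grid moved by 50000 bp changed only the share in runs beyond its interval, to 54.1%. Peaks of at least 10 times enrichment left 0 bins, so that no share could be given. Bases under at least 2 peaks left 217 bins, with 82.0% in the outer 10% and 20.3% in runs. Without the TH list there were 896 bins (67.3% in the outer 10%, 45.2% in runs) and without YL 837 (71.0% and 48.3%). Without YH the shares were 66.5% and 52.6%, and without TL 66.1% and 55.1%. With ends of 5% the share at the ends was 41.6%, and with runs that may step over 1 bin 73.1% of the bins were in runs.

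Counting only bases under at least 2 peaks of a list, the covered share was 13.1% in YL, 11.2% in TH, 10.8% in YH and 8.78% in TL, and with peaks of 20 tags or more it was 23.7%, 22.0%, 20.02% and 17.7%, in the same order of lists in both cases. The Jaccard index over bases under at least 2 peaks was 0.453 for TH and YH, 0.434 for TL and YL, 0.450 for TH and TL and 0.523 for YH and YL. As the share of peaks of both lists that overlap by at least 1 bp, the values were 81.0%, 81.5%, 81.1% and 85.7%, and by at least 50% of both peaks 75.4%, 75.3%, 75.5% and 81.4%. With overlapping peaks of a list merged, the lengths had medians of 1908 bp (YL), 1854 bp (YH), 1731 bp (TH) and 1668 bp (TL). The cause of these changes was not tested, beyond the settings' own construction.

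No paired analysis was possible because the peaks carry no animal names, and for the same reason leaving out 1 animal was not run. Each group is 1 list, so that no difference between groups can be set against the spread between animals. The lists keep no reads outside peaks, so a base without a peak is below the authors' threshold at that depth and not shown to be unmethylated.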
